A study of Homo sapiens with 12 samples.

Results

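YAP1 and WWTR1, the genes of the coactivators YAP and TAZ, were followed with the 4 TEAD genes and with VGLL3 and VGLL4 in a renal cancer line under 3 knockdowns. These 8 genes were taken by symbol from the 62702 genes of the deposited count table, and all 8 were found there. The cells were 786-O, an established line from a clear cell kidney cancer in which VHL is inactive and HIF2A is therefore not degraded. There were 12 libraries, 3 in each of 4 groups: shHIF2A (knockdown of HIF2A, the protein of EPAS1), shJUNs (knockdown of JUN, JUNB and JUND together), shYAPTAZ (knockdown of YAP1 and WWTR1 together) and the parental line. All 4 lines, the parental one included, were kept in doxycycline for 72 hours, the agent that induces the shRNAs. The shRNA lines had been selected with puromycin, blasticidin or hygromycin, and a control shRNA was not among the groups analysed here, so effects of a knockdown cannot be told apart from other differences between the lines. The labels call the replicates technical, so p-values measure only the spread between these libraries.

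YAP and TAZ carry no DNA-binding domain. They enter the nucleus when the Hippo kinases MST and LATS are inactive and bind the TEAD proteins, which recognise DNA and recruit them to enhancers, often beside AP-1. VGLL4 binds the same TEAD surface through its Tondu motifs and competes with YAP, and VGLL3 is another vestigial-like TEAD cofactor. In kidney tumours YAP and TAZ are known for a role in growth and matrix programs.

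The available promoters of the genes followed here, whether called or not, show which short motifs of these factors lie at their start sites. RefSeq promoter windows (GRCh38.p14, 250 bases before to 50 after a start) were found for 6 of the 8 genes, in 12 windows. TEAD1 and TEAD4 had no entry. The windows were searched on both strands for the TEAD core GGAATG, the AP-1 site TGAGTCA and the HIF core ACGTG or GCGTG. Capitals below mark the matches. The window of YAP1 (chr11:102110197-102110496, plus strand) is shown because it holds a TEAD core, that of WWTR1 (chr3:149657976-149658275, minus strand) as the other shRNA target, and that of VGLL4 (chr3:11720490-11720789, minus strand) as the one with the most HIF core matches among the VGLL4 windows.

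YAP1: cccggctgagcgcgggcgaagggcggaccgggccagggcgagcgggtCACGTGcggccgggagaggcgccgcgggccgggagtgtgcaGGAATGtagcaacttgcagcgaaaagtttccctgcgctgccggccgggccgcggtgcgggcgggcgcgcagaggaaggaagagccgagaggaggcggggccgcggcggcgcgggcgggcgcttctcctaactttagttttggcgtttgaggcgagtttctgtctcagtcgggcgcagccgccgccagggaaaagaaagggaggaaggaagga
WWTR1: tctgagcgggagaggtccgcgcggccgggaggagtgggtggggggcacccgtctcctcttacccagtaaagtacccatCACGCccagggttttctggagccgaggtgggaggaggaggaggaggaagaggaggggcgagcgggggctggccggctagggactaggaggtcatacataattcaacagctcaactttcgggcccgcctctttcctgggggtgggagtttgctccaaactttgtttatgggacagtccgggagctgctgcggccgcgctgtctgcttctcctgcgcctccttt
VGLL4: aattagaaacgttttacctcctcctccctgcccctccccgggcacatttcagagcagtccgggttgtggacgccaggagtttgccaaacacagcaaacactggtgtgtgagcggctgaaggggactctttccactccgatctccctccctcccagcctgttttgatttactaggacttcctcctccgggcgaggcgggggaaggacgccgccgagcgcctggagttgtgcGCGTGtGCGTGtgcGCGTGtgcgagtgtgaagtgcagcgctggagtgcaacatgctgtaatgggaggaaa

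The YAP1 window held the only TEAD core among the 12, beginning at position -162 from the start, and a palindromic CACGTG in which the HIF core is read on each strand. The window of WWTR1 shown held 1 HIF core, read on the reverse strand at position -172, and its second window (chr3:149703224-149703523) held none of the motifs. The VGLL4 window shown held 3 HIF core matches in a short GCGTG repeat before the start. The other VGLL4 windows held 1, 1, 2 and 0, so VGLL4 adds several windows to the HIF count below. In all, the HIF core was in 7 of the 12 windows and in 48.4% of the 35116 windows of all genes, the TEAD core in 1 of 12 and in 14.03%, and the AP-1 site in 0 of 12 and in 4.95%. These are matches of letters, and binding was not measured.

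Counting covered the 3′ ends of polyadenylated RNA (BRB-seq), so levels are given in CPM and are not compared between genes. CPM are counts scaled to a library size adjusted by edgeR's TMM method. Total counts per library were 2867807 to 3526537 in shHIF2A, 3684052 to 4469956 in shJUNs, 2272459 to 4127139 in shYAPTAZ and 2885287 to 3603339 in parental cells. A floor of 3 counts in 1 library equals 0.671 to 1.32 CPM, and intervals on counts and floors cover counting error only. Of the other shRNA targets, EPAS1 was 15.97 ± 3.58 CPM in shHIF2A, 37.1 ± 1.20 CPM in shJUNs, 113 ± 56.8 CPM in shYAPTAZ and 203 ± 59.6 CPM in parental cells (SD, n = 3), and was called lower in all 3 knockdowns. JUND was 220.1 ± 43.2 CPM in shHIF2A, 38.6 ± 3.998 CPM in shJUNs, 170.04 ± 4.18 CPM in shYAPTAZ and 355 ± 40.98 CPM in parental cells, likewise called lower in all 3. JUN averaged 80.2 CPM in shHIF2A, 85.6 CPM in shJUNs, 155 CPM in shYAPTAZ and 153 CPM in parental cells. JUNB held 103 to 125 CPM in shJUNs and 97.0 to 266 CPM in parental cells, so these libraries overlapped, though it was called 1.70-fold lower (adjusted p = 0.0340). Of 9 renal markers, all tested, 2 were higher and 3 lower in shHIF2A, beside 9.84% higher and 8.80% lower of all genes tested. The shJUNs cells had 2 higher and 2 lower, beside 10.3% and 8.93% of all genes. For shYAPTAZ it was 1 higher and 1 lower, beside 13% and 12.3%. PAX8 was not called in any knockdown and averaged 88.9 to 101 CPM in the 4 groups. LHX1 averaged 37.3 CPM in shHIF2A, 17.6 CPM in shJUNs, 56.6 CPM in shYAPTAZ and 88.5 CPM in parental cells, CA12 averaged 32.4, 46.4, 111 and 283 CPM in the same order, and KRT8 averaged 362, 626, 347 and 185 CPM. The summed level of the 9 was 10435 to 10999 CPM in shHIF2A, 14459 to 15246 CPM in shJUNs, 15615 to 16032 CPM in shYAPTAZ and 14462 to 18176 CPM in parental cells, most of it VIM. Of 5 blood and 4 endothelial markers, 3 each had no count in any library, CD3E, PECAM1 and CDH5 among them, and the sums stayed at or under 2.61 CPM. The sum of 3 neuronal markers was 0.936 to 7.01 CPM in shHIF2A, 8.94 to 12.02 CPM in shJUNs, 13.3 to 36.3 CPM in shYAPTAZ and 1.70 to 1.97 CPM in parental cells. These markers did not rise together. Most of the sum was SNAP25 in shYAPTAZ (11.8 to 36.3 CPM) and RBFOX3 in shJUNs (6.93 to 8.65 CPM), and TUBB3 was 0 in both. The sum of 4 fibroblast markers was 15.9 to 24.5 CPM in shHIF2A, 6.93 to 10.9 CPM in shJUNs, 0 to 2.72 CPM in shYAPTAZ and 8.76 to 17.1 CPM in parental cells. The part of these marker genes in the results below was not tested.

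Each knockdown was compared with parental cells, and the knockdowns with each other, by edgeR's quasi-likelihood test over all 12 libraries, with p-values adjusted by Benjamini-Hochberg over the 12301 genes that passed a filter on low counts. A gene was called at an adjusted p under 0.05. Of the 8 genes 6 passed the filter, and TEAD2 and VGLL3 were too low to be tested. YAP1, WWTR1, TEAD1 and VGLL4 differed among the 4 groups, 4 of the 6 tested, where 38.7% of all genes tested did. The adjusted p of this test was 4.6e-06 for YAP1, 5.55e-08 for WWTR1, 0.0114 for TEAD1 and 0.0183 for VGLL4, against 0.418 for TEAD4 and 0.879 for TEAD3. In shYAPTAZ 3 of the 6 were called, all lower than in parental cells, where 25.3% of all genes were called, 13% higher and 12.3% lower. In shHIF2A 2 were called, both higher, where 18.6% of all genes were, 9.84% higher and 8.80% lower. In shJUNs 1 was called, higher, where 19.3% of all genes were, 10.3% higher and 8.93% lower. The 3 comparisons share the same parental libraries.

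**Figure D1:**
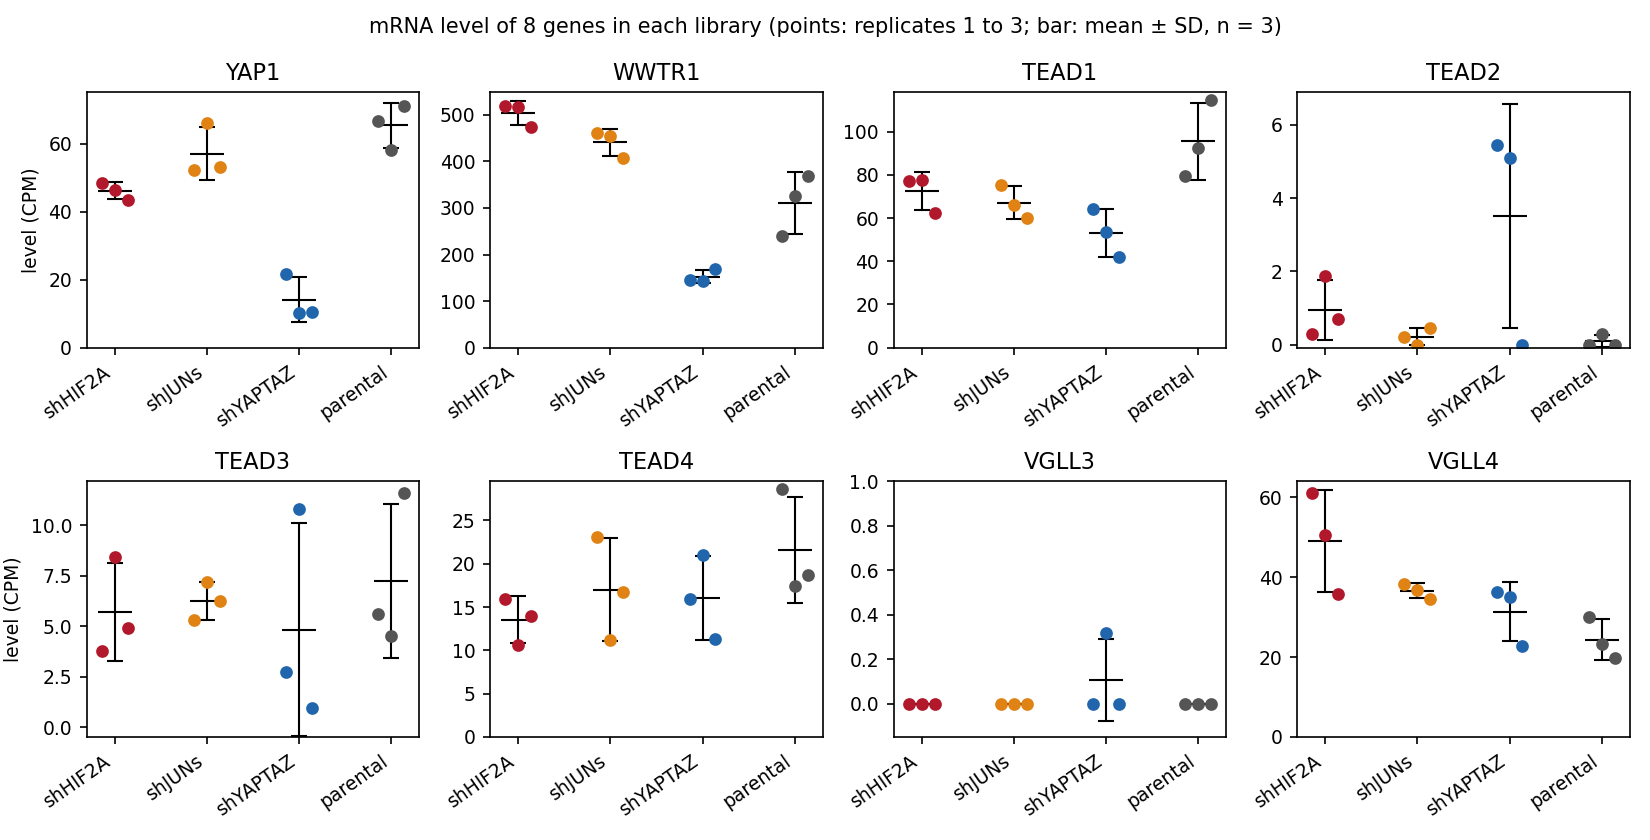
Level of each of the 8 genes in CPM (vertical axes, linear) in every library of shHIF2A, shJUNs, shYAPTAZ and parental cells (horizontal axis). Points are replicates 1 to 3 and black bars the mean ± SD (n = 3). YAP1 was lowest in shYAPTAZ, at 10.2 to 21.8 CPM, and WWTR1 ranged from 143 CPM in shYAPTAZ to 519 CPM in shHIF2A, while VGLL3 had a count in 1 library alone.

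YAP1, the founding YAP coactivator gene (ENSG00000137693, chromosome 11, 102110447 to 102233424, plus strand, hg38), was lower in its own knockdown. It stood at 21.8, 10.2 and 10.4 CPM in shYAPTAZ replicates 1 to 3, against 66.7, 58.2 and 71.2 CPM in the parental ones. The groups did not overlap, and shYAPTAZ replicate 1 was the highest of its group. The mean was 14.1 ± 6.65 CPM in shYAPTAZ and 65.4 ± 6.61 CPM in parental cells (SD, n = 3 each), a log2 change of -2.26 with a standard error of 0.26 (adjusted p = 1.2e-06). In bulk RNA, fewer cells with the transcript and less transcript per cell cannot be told apart.

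The other knockdowns left YAP1 nearer to the parental level. shHIF2A libraries held 48.4, 46.5 and 43.4 CPM, all below the parental ones, and shJUNs libraries 52.1, 66.0 and 53.2 CPM, which overlap them. Neither passed the test. The ratio to parental cells was 0.706 in shHIF2A (95% interval 0.503 to 0.991, adjusted p = 0.143) and 0.873 in shJUNs (0.625 to 1.22, adjusted p = 0.617). In order of mean level, parental cells were followed by shJUNs, shHIF2A and shYAPTAZ. shJUNs and shHIF2A lay side by side without a called difference (ratio 1.24, interval 0.882 to 1.73, adjusted p = 0.492), whereas shYAPTAZ was lower than each of the other knockdowns, by a log2 difference of -1.76 against shHIF2A (adjusted p = 4.89e-05) and -2.06 against shJUNs (7.31e-06).

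WWTR1, which encodes TAZ (ENSG00000018408, chromosome 3, 149517235 to 149736714, minus strand), moved in both directions. It fell in shYAPTAZ and rose in shHIF2A and in shJUNs. Replicates 1 to 3 held 519, 517 and 474 CPM in shHIF2A, 460, 455 and 408 CPM in shJUNs, 146, 143 and 169 CPM in shYAPTAZ, and 239, 325 and 369 CPM in parental cells. No knockdown overlapped the parental libraries, among which replicate 1 was the lowest. Such separation was seen for 36.1% of all genes tested in shHIF2A, 39.5% in shJUNs and 36.2% in shYAPTAZ.

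The rise of WWTR1 in shHIF2A was 1.62-fold, to 504 ± 25.9 CPM, against 311 ± 66.1 CPM in parental cells (SD, n = 3, adjusted p = 0.00181). In shJUNs it was 1.42-fold, at 441 ± 28.8 CPM (adjusted p = 0.0169), and this call ended on leaving out shJUNs replicate 2 (adjusted p = 0.0687), shJUNs replicate 1 (0.0700) or parental replicate 1 (0.0846). The fall in shYAPTAZ was 2.04-fold, to 153 ± 14.6 CPM (adjusted p = 2.23e-05). shHIF2A and shJUNs did not differ by the test (shJUNs over shHIF2A ratio 0.876, interval 0.712 to 1.08, adjusted p = 0.482). Both were apart from shYAPTAZ, which was lower than shHIF2A by a log2 difference of -1.72 (adjusted p = 3.3e-08) and lower than shJUNs by -1.53 (1.81e-07).

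**Figure D2:**
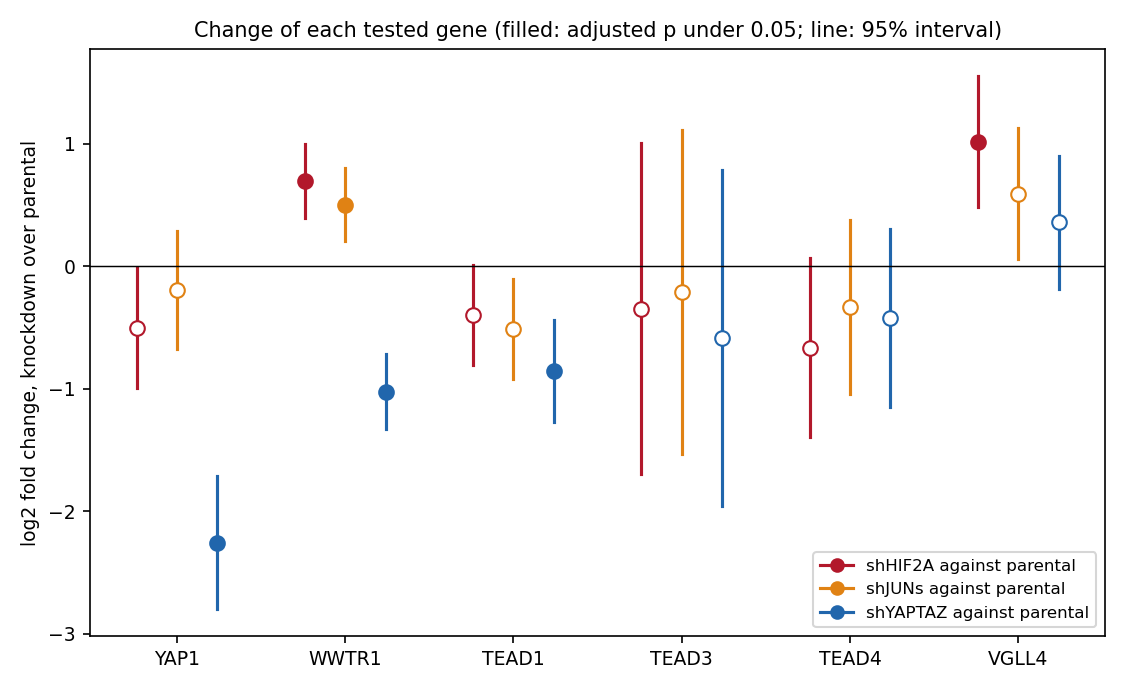
Log2 fold change of the 6 tested genes in each knockdown over parental cells (vertical axis), by gene (horizontal axis). Circles are the fitted values, filled where the adjusted p was under 0.05, and lines are 95% intervals from the fit. WWTR1 and VGLL4 lie above 0 in shHIF2A, whereas YAP1, WWTR1 and TEAD1 lie below 0 in shYAPTAZ.

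The balance between the transcripts of the coactivators moved with these changes. YAP1 made up 8.52%, 8.24% and 8.40% of the summed YAP1 and WWTR1 counts in shHIF2A replicates 1 to 3, 10.2%, 12.7% and 11.5% in shJUNs, 13.0%, 6.67% and 5.76% in shYAPTAZ, and 21.8%, 15.2% and 16.2% in parental cells. Every knockdown library lay below every parental one. The 95% exact binomial (Clopper-Pearson) interval of parental replicate 2, the lowest of the parental libraries, was 13.3% to 17.2%. It overlapped those of shYAPTAZ replicate 1 (9.75% to 16.9%) and shJUNs replicate 2 (11.2% to 14.2%), and lay above those of the shHIF2A libraries (7.01% to 9.93% in all). The mean share was lower than in parental cells by -9.35 percentage points in shHIF2A, -6.28 in shJUNs and -9.26 in shYAPTAZ. In each of these 3 comparisons the two-sided exact permutation p was 0.1, the smallest that 3 against 3 libraries allow, and stayed 0.1 after adjustment over the 3. The summed level of the pair was 549.6 ± 28.3 CPM in shHIF2A, 498 ± 32.5 CPM in shJUNs, 167 ± 13.5 CPM in shYAPTAZ and 376 ± 67.5 CPM in parental cells (SD, n = 3). The pair is read from 3′ tags of different transcripts, so the shares describe counts and not numbers of molecules.

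**Figure D3:**
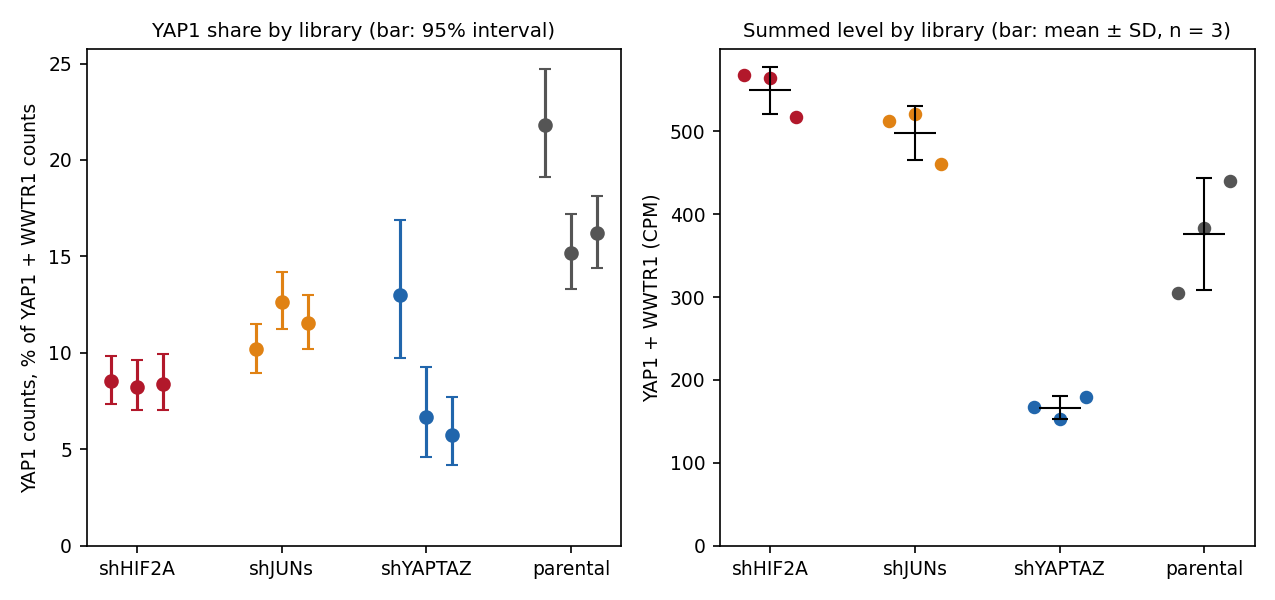
Left, YAP1 counts as a percentage of YAP1 plus WWTR1 counts in each library, with 95% exact binomial intervals. Right, the summed level of both genes in CPM, as points per library with the mean ± SD (n = 3). The parental shares, 15.2% to 21.8%, lie above the knockdown ones, while the summed level is highest in shHIF2A and lowest in shYAPTAZ.

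Among the DNA-binding partners, TEAD1 (ENSG00000187079, chromosome 11, 12674421 to 12944737, plus strand), a TEAD known from heart and smooth muscle programs, was the TEAD gene that was called. TEAD1 held 64.0, 53.5 and 41.9 CPM in shYAPTAZ replicates 1 to 3, against 79.6, 92.5 and 115 CPM in the parental ones. The groups did not overlap, and the shRNAs of this line were not directed at TEAD1. The mean fell to 53.1 ± 11.04 CPM in shYAPTAZ, against 95.6 ± 17.8 CPM in parental cells, 1.81-fold (SD, n = 3, adjusted p = 0.00296).

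TEAD1 was also below every parental library in shHIF2A, at 77.4, 77.7 and 62.4 CPM, and in shJUNs, at 75.4, 66.2 and 59.9 CPM. These differences did not pass. The ratio to parental cells was 0.758 in shHIF2A (95% interval 0.571 to 1.01, adjusted p = 0.164) and 0.702 in shJUNs (0.530 to 0.931, adjusted p = 0.0730). The shJUNs difference was called without parental replicate 1 (adjusted p = 0.0495) or shYAPTAZ replicate 3 (0.0476) and when only the 6 libraries compared were fitted (0.0397). It was also called with a replicate block in the fit (adjusted p = 0.0447). In order of level, parental cells were followed by shHIF2A, shJUNs and shYAPTAZ. None of the knockdowns differed from another by the test for TEAD1: the adjusted p was 0.122 for shYAPTAZ against shHIF2A, 0.266 for shYAPTAZ against shJUNs and 0.807 for shJUNs against shHIF2A. Whether the fall is particular to shYAPTAZ is therefore not shown.

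TEAD4 (ENSG00000197905, chromosome 12, 2959330 to 3040676, plus strand), a TEAD best known from the trophectoderm of the early embryo, was not called in any comparison. It held 15.9, 10.6 and 14.01 CPM in shHIF2A, 23.1, 11.2 and 16.8 CPM in shJUNs, 15.9, 21.0 and 11.3 CPM in shYAPTAZ, and 28.6, 17.4 and 18.7 CPM in parental cells. Only the shHIF2A libraries lay below all parental ones. The ratio to parental cells was 0.630 there (95% interval 0.380 to 1.05, adjusted p = 0.197), 0.795 in shJUNs (0.485 to 1.30, adjusted p = 0.555) and 0.745 in shYAPTAZ (0.450 to 1.23, adjusted p = 0.411).

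TEAD3 (ENSG00000007866, chromosome 6, 35473597 to 35497079, minus strand), another paralog with the same TEA DNA-binding domain, was low and its libraries scattered. It held 3.77, 8.42 and 4.90 CPM in shHIF2A, 5.33, 7.21 and 6.26 CPM in shJUNs, 2.72, 10.8 and 0.964 CPM in shYAPTAZ, and 5.58, 4.499 and 11.6 CPM in parental cells. Every knockdown overlapped the parental libraries. The 95% intervals of the ratio to parental cells ran from 0.309 to 2.01 in shHIF2A, 0.345 to 2.17 in shJUNs and 0.258 to 1.72 in shYAPTAZ, too wide to give TEAD3 a direction at this depth.

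TEAD2 (ENSG00000074219, chromosome 19, 49340595 to 49362457, minus strand), a TEAD of embryonic and neural tissue, had few counts outside shYAPTAZ. It had 1, 6 and 2 counts in shHIF2A replicates 1 to 3, 1, 0 and 2 in shJUNs, 12, 16 and 0 in shYAPTAZ, and 0, 1 and 0 in parental cells. The shYAPTAZ libraries disagreed, since replicate 3, with the most total counts of the group, had no TEAD2 count while the other two gave 5.45 and 5.09 CPM. Over the group, 28 counts in shYAPTAZ against 1 in parental cells gave a ratio of 29.4 (95% exact binomial interval 4.86 to 1201), and 9 in shHIF2A against 1 gave 9.43 (1.31 to 413). Both intervals leave out the spread between libraries. With no filter on low counts edgeR called TEAD2 in shYAPTAZ (adjusted p = 0.0437 over 24340 genes) and not in shHIF2A (0.361). It was admitted by the filter only through the shYAPTAZ libraries in which it is high, so fits that left out a library give no test of it.

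VGLL4 (ENSG00000144560, chromosome 3, 11556069 to 11771350, minus strand), the competitor of YAP for TEAD, rose in shHIF2A. It stood at 61.2, 50.5 and 35.7 CPM in shHIF2A replicates 1 to 3, against 30.02, 23.3 and 19.8 CPM in the parental ones. The groups did not overlap, though shHIF2A replicate 3 came close to parental replicate 1. The mean was 49.1 ± 12.8 CPM in shHIF2A and 24.4 ± 5.19 CPM in parental cells, 2.03-fold higher (SD, n = 3, adjusted p = 0.00808). The call ended without shHIF2A replicate 1, at a log2 change of 0.83 (adjusted p = 0.0551).

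VGLL4 held 38.4, 36.9 and 34.6 CPM in shJUNs and 36.3, 35.02 and 22.9 CPM in shYAPTAZ. The shJUNs libraries were all above the parental ones and the shYAPTAZ libraries overlapped them. Neither was called, with ratios to parental cells of 1.51 in shJUNs (95% interval 1.04 to 2.18, adjusted p = 0.115) and 1.28 in shYAPTAZ (0.879 to 1.87, adjusted p = 0.348). From the highest mean to the lowest the order was shHIF2A, shJUNs, shYAPTAZ and parental cells, and no neighbours in it differed by the test. shYAPTAZ against shHIF2A missed it (ratio 0.633, interval 0.438 to 0.915, adjusted p = 0.0780) and passed without shHIF2A replicate 3 (0.0371) or with a replicate block in the fit (0.0431).

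The 3′ end of VGLL4 overlaps that of ATG7, an autophagy gene on the opposite strand, and the sources used here do not give the strand setting of the counting. ATG7 was 10.8 ± 4.72 CPM in shHIF2A and 9.53 ± 2.28 CPM in parental cells (log2 change 0.17, adjusted p = 0.833). VGLL3 (ENSG00000206538, chromosome 3, 86876388 to 86991149, minus strand) had 1 count over the 12 libraries, in shYAPTAZ replicate 2, which is under the floor in each group. VGLL1 and VGLL2, the remaining vestigial-like genes, had no count in any library. The opposite-strand gene ENSG00000277459 at the start of YAP1 had 12 counts over the 12 libraries, and WWTR1-AS1, which is antisense to WWTR1, had 9. Reads shared between TEAD paralogs could have been split or dropped by the counting, so the TEAD values carry that uncertainty.

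Between knockdowns, 2 of the 6 tested genes were called in shYAPTAZ against shHIF2A, where 18.4% of all genes were called, and 2 in shYAPTAZ against shJUNs (16.1%). In both comparisons these were YAP1 and WWTR1, lower in shYAPTAZ. Of all genes, 9.71% were higher and 8.72% lower in shYAPTAZ than in shHIF2A, and 7.87% higher and 8.27% lower than in shJUNs. None of the 6 was called in shJUNs against shHIF2A, where 7.53% of all genes were, 4.36% higher and 3.17% lower. The libraries of YAP1 and of WWTR1 nevertheless did not overlap in any pair of knockdowns, nor did those of 31.2% of all genes in shJUNs against shHIF2A, 32.2% in shYAPTAZ against shHIF2A and 33.3% in shYAPTAZ against shJUNs. In shJUNs against shHIF2A edgeR, DESeq2 and limma-voom each gave 0 of the 6 genes at an unadjusted p under 0.05. The widest 95% interval in that comparison was that of TEAD3 (ratio 0.432 to 2.79), and the narrowest that of WWTR1.

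Neighbouring genes were read in the same fit. Beside their counts, 18.6% of all genes tested were called in shHIF2A, 19.3% in shJUNs and 25.3% in shYAPTAZ, each against parental cells. Within 500 kb of YAP1, 5 genes were tested and edgeR called 0 in any of the 3 knockdowns against parental cells. Around WWTR1, 9 genes were tested, and in shHIF2A, where WWTR1 rose, 1 was higher (GYG1, glycogenin) and 4 were lower (CP, HLTF, HPS3 and PFN2). In shJUNs, where it rose too, TM4SF18 and GYG1 were higher and HLTF and HPS3 lower. In shYAPTAZ, where it fell, TM4SF18 and TM4SF1 were higher and HPS3 and PFN2 lower. Of the 5 tested around TEAD1, MICAL2 was lower in shHIF2A and LINC00958 in shYAPTAZ. Of the 4 genes tested around VGLL4, 0 were called in shHIF2A or shJUNs by edgeR, and TAMM41 was higher in shYAPTAZ.

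By the pattern of levels over the 12 libraries, the genes most like YAP1 were KALRN (Pearson r of log2 CPM 0.98), NEDD4, a ubiquitin ligase (0.97), and CLDN4, a tight junction claudin (0.97). CLDN4 was 7.14 ± 2.55 CPM in shYAPTAZ and 98.5 ± 11.8 CPM in parental cells. Those most like WWTR1 were LRRC61 (0.97), PTCD3, of mitochondrial translation (0.97), and MTG1, a mitochondrial ribosome GTPase (0.96). LRRC61 was 70.8 ± 8.07 CPM in shHIF2A, 72.1 ± 13.5 CPM in shJUNs, 20.5 ± 2.25 CPM in shYAPTAZ and 40.7 ± 9.08 CPM in parental cells. ACSL3 (0.95), an acyl-CoA synthetase, NOL4L (0.93) and NEDD4L (0.93) were most like TEAD1, and DAB2 (0.90), an endocytic adaptor, CCDC71L (0.90) and NIPSNAP1 (0.90) most like VGLL4. The points fall into the 4 groups and share their libraries, so each r is a description over 12 libraries. Among the 8 genes themselves, YAP1 had an r of 0.77 with WWTR1 and 0.78 with TEAD1, and WWTR1 one of 0.47 with TEAD1. YAP1 and WWTR1 are both shRNA targets of shYAPTAZ, so their joint fall there enters their r by design. Outside shYAPTAZ their means ran in opposite order. YAP1 averaged 65.4 CPM in parental cells, 57.1 CPM in shJUNs and 46.1 CPM in shHIF2A, and WWTR1 311, 441 and 504 CPM.

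The remaining pathway was read from 4 lists. Of 25 Hippo kinases, scaffolds and modulators, all tested, 4 fell and 4 rose in shYAPTAZ, where 12.3% of all genes tested fell and 13.0% rose (median log2 change -0.09, against 0.02 over all genes). AMOTL2, an angiomotin that holds YAP at junctions, stood at 69.0, 56.0 and 46.3 CPM in shYAPTAZ and 321, 256 and 259 CPM in parental cells, 4.91-fold lower (adjusted p = 1.67e-08). LATS2, the kinase that phosphorylates YAP and TAZ, stood at 13.6, 13.7 and 16.4 CPM in shYAPTAZ and 83.8, 59.6 and 54.8 CPM in parental cells, 4.49-fold lower (adjusted p = 9.86e-07). Neither gene's groups overlapped. WWC1, the scaffold KIBRA, fell 2.96-fold, and TAOK2, a kinase upstream of MST, rose 1.99-fold. WTIP, a LATS-binding LIM protein named after its values were seen, is among the 4 that rose. It had 60 counts over shYAPTAZ, 7 over shHIF2A, 2 over shJUNs and 3 over parental cells. The filter admitted WTIP only through the shYAPTAZ libraries in which it is high, so its call is no test. The 4 that rose numbered 1 without parental replicate 2 or 3, 2 without shYAPTAZ replicate 3 and 2 in a fit of the 6 libraries compared.

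In shHIF2A 5 of the 25 Hippo genes fell and 2 rose, where 8.80% of all genes fell and 9.84% rose (median -0.29, against 0.01 over all genes). AMOTL2 fell 2.37-fold, MOB1A, the coactivator of LATS, 2.01-fold, AJUBA, a LATS-binding scaffold, 1.94-fold and TAOK1 1.87-fold. In shJUNs 5 fell and 2 rose, where 8.93% of all genes fell and 10.3% rose (median -0.24, against -0.00 over all genes), with WWC2 3.08-fold, AMOTL2 2.58-fold and LATS2 2.32-fold lower and TAOK2 2.05-fold higher. The 5 that fell numbered 3 without parental replicate 3 or shJUNs replicate 3, and the 2 that rose numbered 1 without parental replicate 1 or shJUNs replicate 1.

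Among 14 genes of cytoplasmic retention and turnover, 13 were tested. RBX1, a subunit of the ubiquitin ligase that degrades YAP and TAZ, YWHAE and YWHAQ, 14-3-3 proteins that bind phosphorylated YAP, rose 1.56-fold, 1.36-fold and 1.33-fold in shYAPTAZ, and YWHAG fell 1.38-fold, beside 13.0% and 12.3% of all genes (median 0.10, against 0.02 over all genes). In shJUNs 4 rose, YWHAH 1.98-fold, RBX1 1.55-fold, YWHAB 1.45-fold and YWHAQ 1.30-fold, beside 10.3% of all genes (median 0.24). YWHAQ was the gene called in shHIF2A, 1.42-fold higher, beside 9.84% of all genes (median 0.19). These counts were small and moved: the 4 in shJUNs became 2 without parental replicate 1 or any one of the shJUNs libraries. The 3 that rose in shYAPTAZ became 1 without parental replicate 1 or 2 or shYAPTAZ replicate 2, and YWHAG was lost without parental replicate 2 or 3 or shYAPTAZ replicate 1 or 2. The 1 in shHIF2A became 0 without shHIF2A replicate 2, 2 without shYAPTAZ replicate 1 and 3 without parental replicate 3. It also became 2 with no filter on low counts and 3 with a replicate block. The block gave 2 falls in shYAPTAZ.

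Target genes of YAP and TAZ, 21 of 22 tested, had 11 lower and 4 higher in shYAPTAZ, beside 12.3% lower and 13.0% higher of all genes (median -0.86, against 0.02 over all genes). AMOTL2 and LATS2, which this list shares with the Hippo list, were joined by IGFBP3, an IGF-binding protein, 4.03-fold lower, and AXL, a receptor tyrosine kinase, 2.22-fold lower. In shHIF2A 6 were lower and 4 higher, beside 8.80% and 9.84% of all genes (median -0.40), with IGFBP3 3.38-fold lower, and CCDC80, a matrix protein, 2.54-fold and CRIM1, a BMP-binding membrane protein, 2.06-fold higher. In shJUNs 6 were lower and 1 higher, beside 8.93% and 10.3% of all genes (median -0.36), with IGFBP3 2.29-fold lower and CRIM1 2.34-fold higher. That single rise became 2 without parental replicate 3 or shYAPTAZ replicate 3, with a replicate block or with no filter on low counts. AMOTL2, LATS2 and PTPN14 are in both the target list and the Hippo list. All of them were called lower in shJUNs, and AMOTL2 and LATS2 in shHIF2A. These falls are counted in both lists, so the counts of the lists are not separate results. Of genes named after their values were seen, ANKRD1 (4.39-fold) and CCN1 (3.10-fold), often used as YAP readouts, fell in shYAPTAZ. CCN2 (2.54-fold), another such readout, NT5E (3.43-fold), CCDC80 (2.41-fold) and RBMS3 (1.73-fold) rose there. CCN1 reached 713 CPM in shYAPTAZ replicate 3, above the 705 CPM of parental replicate 1. CCN2 was 53.6 CPM in shYAPTAZ replicate 1, below the 54.3 CPM of parental replicate 3. Its rise was not limited to shYAPTAZ, since CCN2 was also called 3.22-fold higher in shHIF2A.

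Of 16 other TEAD cofactors and nuclear partners, 12 were tested. In shHIF2A 5 fell and 1 rose, beside 8.80% and 9.84% of all genes (median -0.67, against 0.01 over all genes), with RUNX2, a RUNX factor that can partner YAP, 2.57-fold, RUNX1 2.51-fold, JUN 1.91-fold and SMAD4 1.90-fold lower. SMARCA4, a chromatin remodelling ATPase that was named after its value was seen, was the 1 that rose, a call lost without parental replicate 1 or shHIF2A replicate 2. In shJUNs 6 fell, beside 8.93% of all genes (median -0.53), RUNX2 by 2.85-fold and SMAD2, a TGF-beta signal transducer, by 1.58-fold among them. JUN, 1.79-fold lower there, is an shRNA target of that line. Without any one of the shJUNs libraries the 6 became 3. In shYAPTAZ SMAD4 fell 1.65-fold and SMAD3 1.61-fold, beside 12.3% of all genes that fell (median -0.31), and 1 of these calls was lost without parental replicate 1 or 2 or shYAPTAZ replicate 1 or 2.

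**Figure D4:**
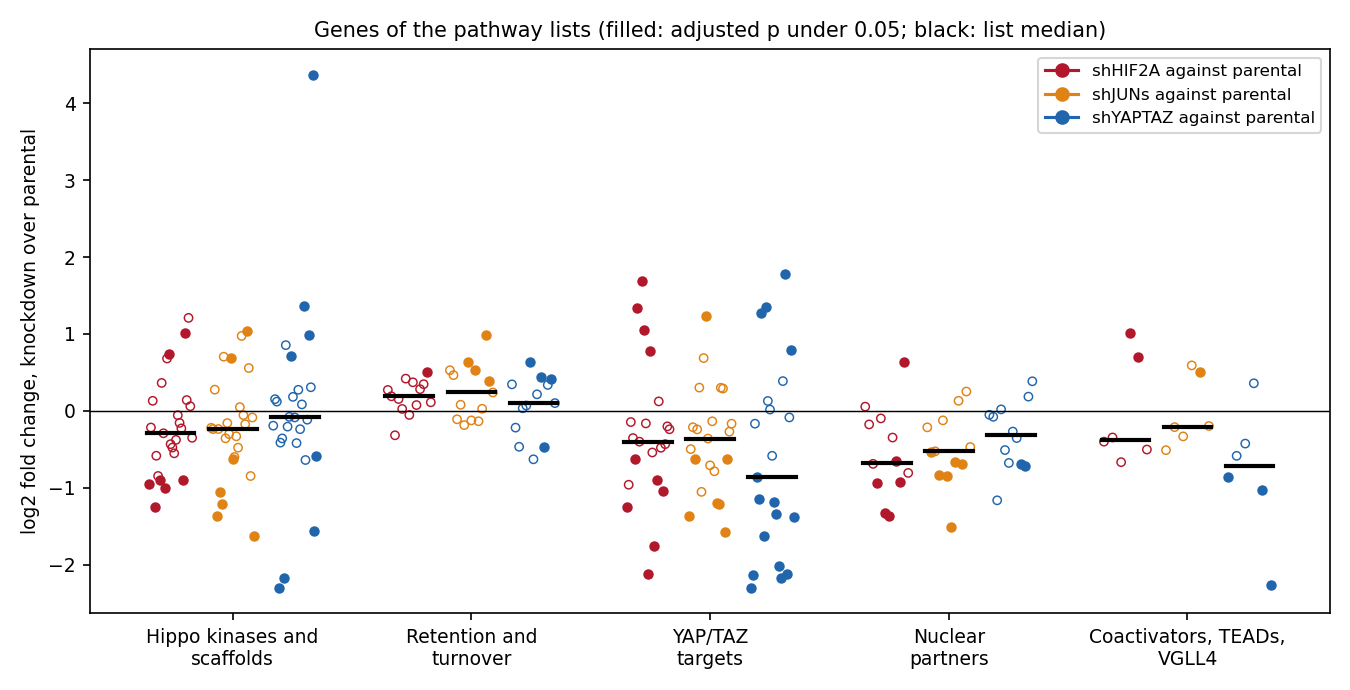
Log2 fold change over parental cells (vertical axis) of every tested gene of 4 pathway lists and of the coactivator, TEAD and VGLL4 genes (horizontal axis), in shHIF2A, shJUNs and shYAPTAZ. Filled circles had an adjusted p under 0.05 and black bars are list medians. The lowest list median is that of the YAP/TAZ targets in shYAPTAZ, -0.86.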

How the data were processed

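RNA of 12 libraries was read by BRB-seq after RNeasy purification, per the labels' protocols. The deposited table gives unnormalized read counts for each gene. Trim Galore, STAR and hg38 are named for the authors' processing, per the submitters' processing notes. The sources used here do not give the counting program, strand setting, annotation release, versions or handling of molecular identifiers. Of 62705 lines, 3 held 1 broken gene, left out. Of 62702 genes 62624 had symbols.

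Genes were filtered with filterByExpr by group, scaled by TMM and fitted in 1 robust quasi-likelihood model (edgeR 4.0.16, R 4.3.3). Standard errors and 95% intervals were derived from the F statistics. Common dispersion was 0.0628 (biological coefficient of variation 25.1%). Simulated counts were used to check the scripts. DESeq2 1.42.0, limma-voom (limma 3.58.1) and the alternatives in the closing section were run.

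All 8 genes were named in full. Also named were overlapping genes with at least 10 counts and the 4 genes of smallest p per list. For each gene that differed among groups, the 3 most correlated genes of at least 10 CPM with a plain symbol were named. Outside this rule, the text names shRNA targets, cell type markers, VGLL1, VGLL2, WWTR1-AS1, PTPN14 and neighbours within 500 kb. It also names genes said to be named after their values were seen. The genes and lists were chosen with earlier results of these data known.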

Additional observations from a re-analysis of the deposited data

How the results depend on the processing

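Of 36 log2 changes of the 6 tested genes, each under 19 alternatives, 663 of 684 values kept direction and side of the threshold, 4 lost a call, 6 gained one and 11 turned sign. The 10 called changes kept their direction throughout, and 8 kept their call in all 19. The 4 losses are those given for WWTR1 in shJUNs and VGLL4 in shHIF2A. In shJUNs against parental, the genes of the 8 that were called numbered 1, and 2 in a fit of the 6 libraries compared and with a replicate block, which added TEAD1 (adjusted p = 0.0447). The block also called VGLL4 in shYAPTAZ against shHIF2A (0.0431) and changed no other call of the 6 genes. The labels tie replicate numbers to no shared culture or batch, so the samples were not treated as paired. In the data 9 of 18 same-numbered pairs had deviations correlated over 0.1, against 0 of 36 other-numbered pairs. Of the 12 libraries, 10 correlated best with their own number, a hint from the data of shared deviations. The missed calls of TEAD1 and VGLL4 in these comparisons depend on leaving the block out, among other choices. Some fits without a block that left out a single library called them too. Fitting 6 libraries alone called 1621 genes in shJUNs against shHIF2A, and all 12 called 926.

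Leaving out each library in turn gave 1 to 2 of the 8 genes called in shHIF2A, 0 to 2 in shJUNs and 2 to 5 among the 4 groups (2 without parental replicate 3), with TEAD2 counted where the filter admitted it. Among these fits TEAD2 was called among the 4 groups only without shYAPTAZ replicate 3. That fit gives no test of TEAD2, so the upper value of 5 is not read as a result. Over all genes it gave 1518 to 2701 in shJUNs against parental, 471 to 1199 in shJUNs against shHIF2A and 1299 to 2199 in shYAPTAZ against shJUNs. TEAD3 turned sign in shHIF2A (-0.75 to 0.18), in shJUNs (-0.46 to 0.31, and 0.050 with thinned counts), in shJUNs against shHIF2A (-0.10 to 0.54), in shYAPTAZ against shHIF2A (-1.71 to 0.28) and in shYAPTAZ against shJUNs (-1.85 to 0.14). TEAD4 did in shYAPTAZ against shHIF2A (-0.0020 to 0.45) and against shJUNs (-0.35 to 0.19). None of these was called, and the cause was not tested beyond the library left out. TEAD2, TEAD3 and VGLL3 had at most 28, 79 and 1 counts in a group, so their values are imprecise from counting alone, beside the spread between libraries.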

Other observations

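Library values in shYAPTAZ differed among replicates for several of these genes, though not all in the same replicate. Replicate 1 held 21.8 CPM of YAP1, replicates 2 and 3 held 10.2 and 10.4 CPM. TEAD2 had 12 and 16 counts in replicates 1 and 2 and 0 in replicate 3. TEAD3 had 34 counts in replicate 2 and 6 and 4 in replicates 1 and 3. WTIP, a LATS-binding LIM protein of the Hippo list that was named after its values were seen, had 60 counts over shYAPTAZ, spread as 14.5, 2.87 and 4.58 CPM, and 3 over parental cells. WWTR1 was even by comparison, at 146, 143 and 169 CPM. Scatter was not limited to shYAPTAZ, since TEAD3 had 16, 16 and 41 counts in parental replicates 1 to 3. The labels call the replicates of each group technical.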
